A study of Mus musculus with 23 samples.

Results

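Lipopolysaccharide (LPS), the glycolipid of the outer membrane of Gram-negative bacteria, was given to wild-type bone marrow-derived macrophages for 8 h, and their transcriptome was set against that of untreated wild-type macrophages. Bone marrow-derived macrophages are primary cells that are grown into macrophages in culture from mouse marrow. The comparison used 6 of the 23 RNA-seq libraries of the series and all genes of the deposited count table. Its members were the 3 libraries titled wild-type at 8 h (libraries 7, 8 and 9; LPS at 100 ng/ml) and the 3 titled wild-type at 0 h (libraries 1, 2 and 3; no LPS). The rest of the series holds wild-type cells after 4 and 24 h of LPS and cells labelled Selenow knock-out at the same times. All 6 libraries are labelled with the wild-type Selenow genotype, and strain, age and sex are not given in the sources used here. The labels do not say whether libraries of a group came from separate mice or cultures. Every p-value below therefore measures only the spread between libraries within groups, pooled over all 23 libraries, which may be technical. Every untreated library carries the time 0 h, and 8 h more in culture therefore cannot be told apart from LPS.

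Macrophages sense LPS through Toll-like receptor 4, with the co-receptors CD14 and MD-2. The receptor signals through the adaptor MyD88 to the transcription factor NF-kB and to MAP kinases, and through the adaptor TRIF to IRF3 and interferon-beta. Interferon-beta then acts back on the macrophage through its own receptor, which adds a later wave of interferon-stimulated genes. The response also makes its own brakes, among them inhibitors of NF-kB, phosphatases of MAP kinases and proteins that destroy cytokine mRNAs, and it changes metabolism, antigen presentation and growth.

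Summed over genes, the counts of read pairs were 39162163, 40474228 and 39001456 in the 8 h libraries and 41068700, 41665055 and 39521403 in the untreated libraries. In these sums, a pair that overlapped several genes counts once for each. Levels are given as CPM, counts relative to library size, after scaling by TMM, edgeR's trimmed mean of M-values, whose factors were 0.849 to 0.872 at 8 h and 1.301 to 1.335 in untreated cells. Of the 3 untreated libraries, library 3 stood apart: its median absolute log2 difference over 10474 genes was 0.244 from library 1 and 0.255 from library 2, against 0.0665 between libraries 1 and 2. The 8 h libraries differed from each other by 0.134 to 0.238. The counts of libraries 1 and 2 varied 2.724 times as much as sampling alone gives, and the labels list them as separate samples. For each log2 fold change of a gene printed below, of 8 h against untreated cells or 4 h, single libraries were left out in turn. Where this moved the change by more than 1.5 times or ended its call, the value without that library is given beside it. Changes that are not printed were not marked in this way, and some of their calls also ended without 1 library.

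The macrophage label was checked against 8 markers, and all of them were detected in every library. Their summed level was 14112, 15290 and 11889 CPM at 8 h and 17206, 17819 and 13693 CPM in untreated cells. The lymphocyte, erythroid and mast cell markers Igll1, Ncr1, Ms4a2, Fcer1a and Car1 had no read in any of the 6 libraries. Other markers of mast cells and T cells that were too low to test had reads: Cpa3, Mcpt8 and Prss34 had at most 6 in any library, and Trac had 8, 7 and 6 reads at 8 h against 0, 1 and 0 in untreated cells. The 1 mast cell and basophil marker tested, Gata2, was higher, with 0.963, 1.22 and 0.471 CPM at 8 h against 0.0562, 0 and 0.0379 CPM in untreated cells (4.70 ± 0.83, 5.35 without library 1). Of 10 neutrophil granule and marker genes tested, 7 were lower and 1 was higher at 8 h (none without library 1, 3 or 8), and their sum was 66.0, 87.2 and 57.9 CPM against 124.1, 157.6 and 129.95 CPM in untreated cells. Ngp, a neutrophil granule protein, had 5.60, 8.47 and 9.30 CPM at 8 h and 38.4, 45.2 and 46.6 CPM in untreated cells. The 5 B cell markers tested (2 higher, 2 lower) summed to 3.49, 4.67 and 7.47 CPM at 8 h and 135.8, 146.1 and 107.7 CPM in untreated cells, nearly all of it from Ighm, the immunoglobulin mu heavy chain. The 3 T and NK cell markers tested summed to at most 6.35 CPM in any library, and the 2 erythroid markers tested to at most 0.436 CPM. The 8 stromal markers tested (4 higher, none lower) summed to 10.7, 13.2 and 14.03 CPM at 8 h and 1.67, 1.70 and 1.71 CPM in untreated cells, mostly from Pdgfrb, a receptor of platelet-derived growth factor. The 4 dendritic cell markers tested (2 higher, or 1 without library 1, 2 or 9, and none lower) summed to 17.1, 12.6 and 25.9 CPM against 2.27, 2.25 and 1.63 CPM, mostly from the chemokine receptor gene Xcr1. The part of these cells in the results was not tested, and in bulk RNA fewer cells of a type and less RNA per cell cannot be told apart.

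Of 18083 genes tested, 11824 (65.4%) changed between 8 h of LPS and untreated cells at an adjusted p under 0.05 in edgeR's quasi-likelihood test with Benjamini-Hochberg adjustment. Of these, 5480 (30.3%) were higher and 6344 (35.1%) were lower at 8 h. At least a 2-fold change was fitted for 3398 of the higher genes (18.8% of all tested) and 3823 of the lower ones (21.1%). A change of at least 8-fold was fitted for 1155 higher and 642 lower genes. The 3 libraries of a group did not overlap those of the other in 12526 genes (69.3%). Because most genes passed the test, the counts of any gene group below are read against these shares, and the fitted log2 fold change (8 h minus untreated, ± SE) carries the size. For every gene whose library values are given below, the 8 h and untreated libraries did not overlap unless stated. The median log2 fold change over all genes was -0.10.

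**Figure D1:**
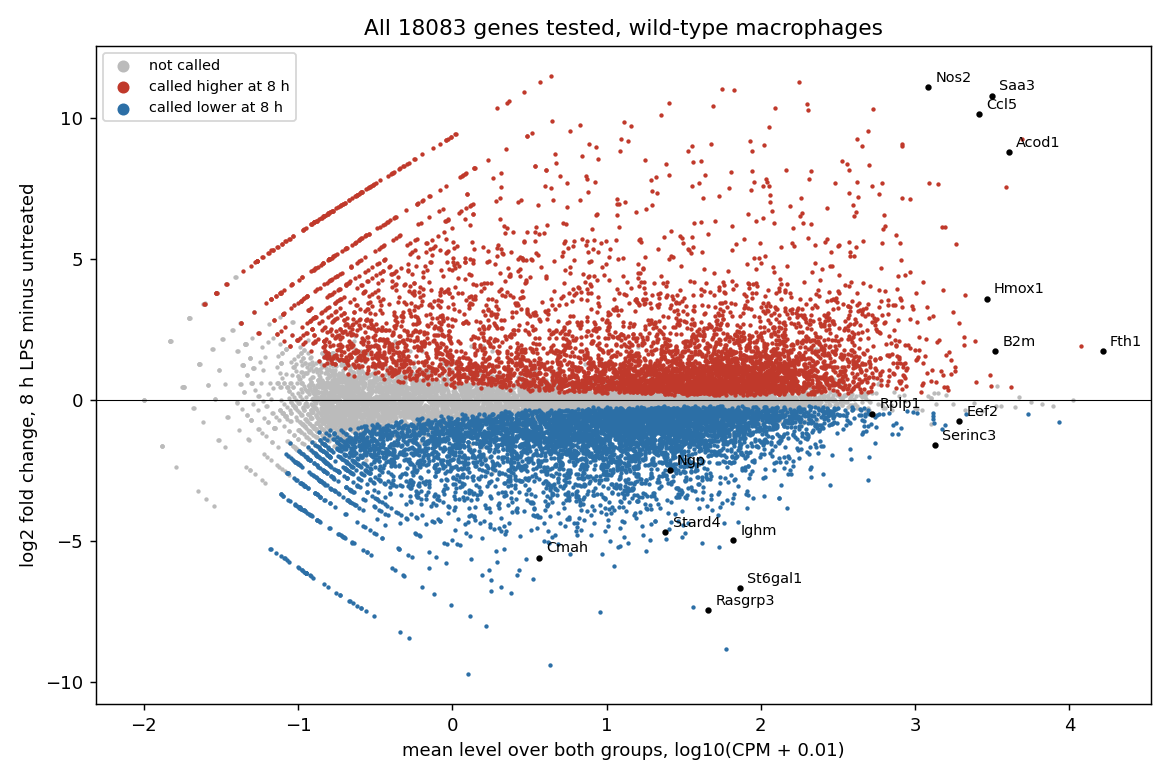
Each point is 1 of 18083 genes, with the mean level over the 6 libraries on the x axis (log10 of CPM) and the log2 fold change of 8 h LPS against untreated on the y axis. Genes called higher (5480) are red, genes called lower (6344) are blue and the rest are grey, with some genes named by black points. The largest changes lie above 0, and the slanted rows at low levels are genes with few or no reads in one group, whose fitted value depends on the prior count.

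A large part of the transcript pool was replaced. In TPM, counts divided by exonic length and scaled to the library total, the genes called higher made up 58.9, 56.6 and 61.0% of the pool at 8 h and 24.3, 24.3 and 26.7% in untreated cells. The genes called lower made up 11.5, 12.3 and 11.7% and 31.2, 31.3 and 31.3%, a description only, since the same contrast chose both sets. TPM values were not scaled by TMM, whereas the fitted changes were. Gains are therefore smaller, and losses larger, in TPM than in the fitted log2 fold changes. Several of the largest gains were in structural and housekeeping mRNAs that were already abundant. Actb, cytoplasmic actin, had 14202, 14597 and 17464 TPM at 8 h against 4724, 5298 and 7489.8 TPM in untreated cells. Fth1, the heavy chain of the iron store ferritin, had 15563, 17936 and 14564 TPM against 6966, 6870.1 and 6670.0 TPM. B2m, the light chain of MHC class I, had 13144, 13354 and 12746 TPM at 8 h against 5791, 5151 and 5812 TPM in untreated cells. Other gains came from genes at lower levels in untreated cells. Acod1, which makes the antibacterial metabolite itaconate, had 6178, 6147 and 8098 TPM against 10.1, 12.2 and 44.4 TPM, a log2 fold change of 8.79 ± 0.85 (9.73 without library 3). Ccl3, a chemokine, had 3605, 2767 and 7921 TPM at 8 h against 316, 282 and 333 TPM in untreated cells.

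The largest loss of pool share was that of Lyz2, the main lysozyme of macrophages, with 10497, 12002 and 9489.6 TPM at 8 h and 26859, 27958 and 22381 TPM in untreated cells (-0.76 ± 0.27, -0.69 and not called without library 2, -0.66 and not called without library 9). Ctsd, the lysosomal protease cathepsin D, had 4466, 4824 and 3275 TPM at 8 h and 8869.6, 8911 and 7522 TPM in untreated cells (-0.49 ± 0.20), and was not called without library 1 (-0.44), 2 (-0.45) or 9 (-0.33). Mir5121 is a microRNA gene, so its TPM rests on a short exonic length, and it had 2022, 2325 and 2188 TPM at 8 h and 5932, 6543 and 5722 TPM in untreated cells (-0.96 ± 0.11). Lyz1, another lysozyme, had 785, 1167 and 877 TPM at 8 h and 2724, 2983 and 2368 TPM in untreated cells. Eef2, an elongation factor of translation, had 870.2, 910.2 and 1092 TPM against 2366, 2432 and 2049 TPM (-0.74 ± 0.13). Rplp1, a ribosomal stalk protein, had 1820.0, 2056 and 1957 TPM against 3878, 4003 and 3729 TPM (-0.48 ± 0.09). Serinc3, a membrane protein that limits retroviral infectivity, had 375, 346 and 429.9 TPM at 8 h and 1719, 1978 and 1269 TPM in untreated cells (-1.60 ± 0.16). The 37 genes of the mitochondrial genome together held 2.35, 2.31 and 2.66% of the pool at 8 h and 3.90, 3.42 and 3.07% in untreated cells. Of the 13 mitochondrial mRNAs tested, 4 were called lower and none higher, against 35.1% lower over all genes. After TMM scaling, their sums overlapped between the groups. They were 9151, 8439 and 9793 CPM at 8 h and 11205, 9950 and 9020 CPM in untreated cells.

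**Figure D2:**
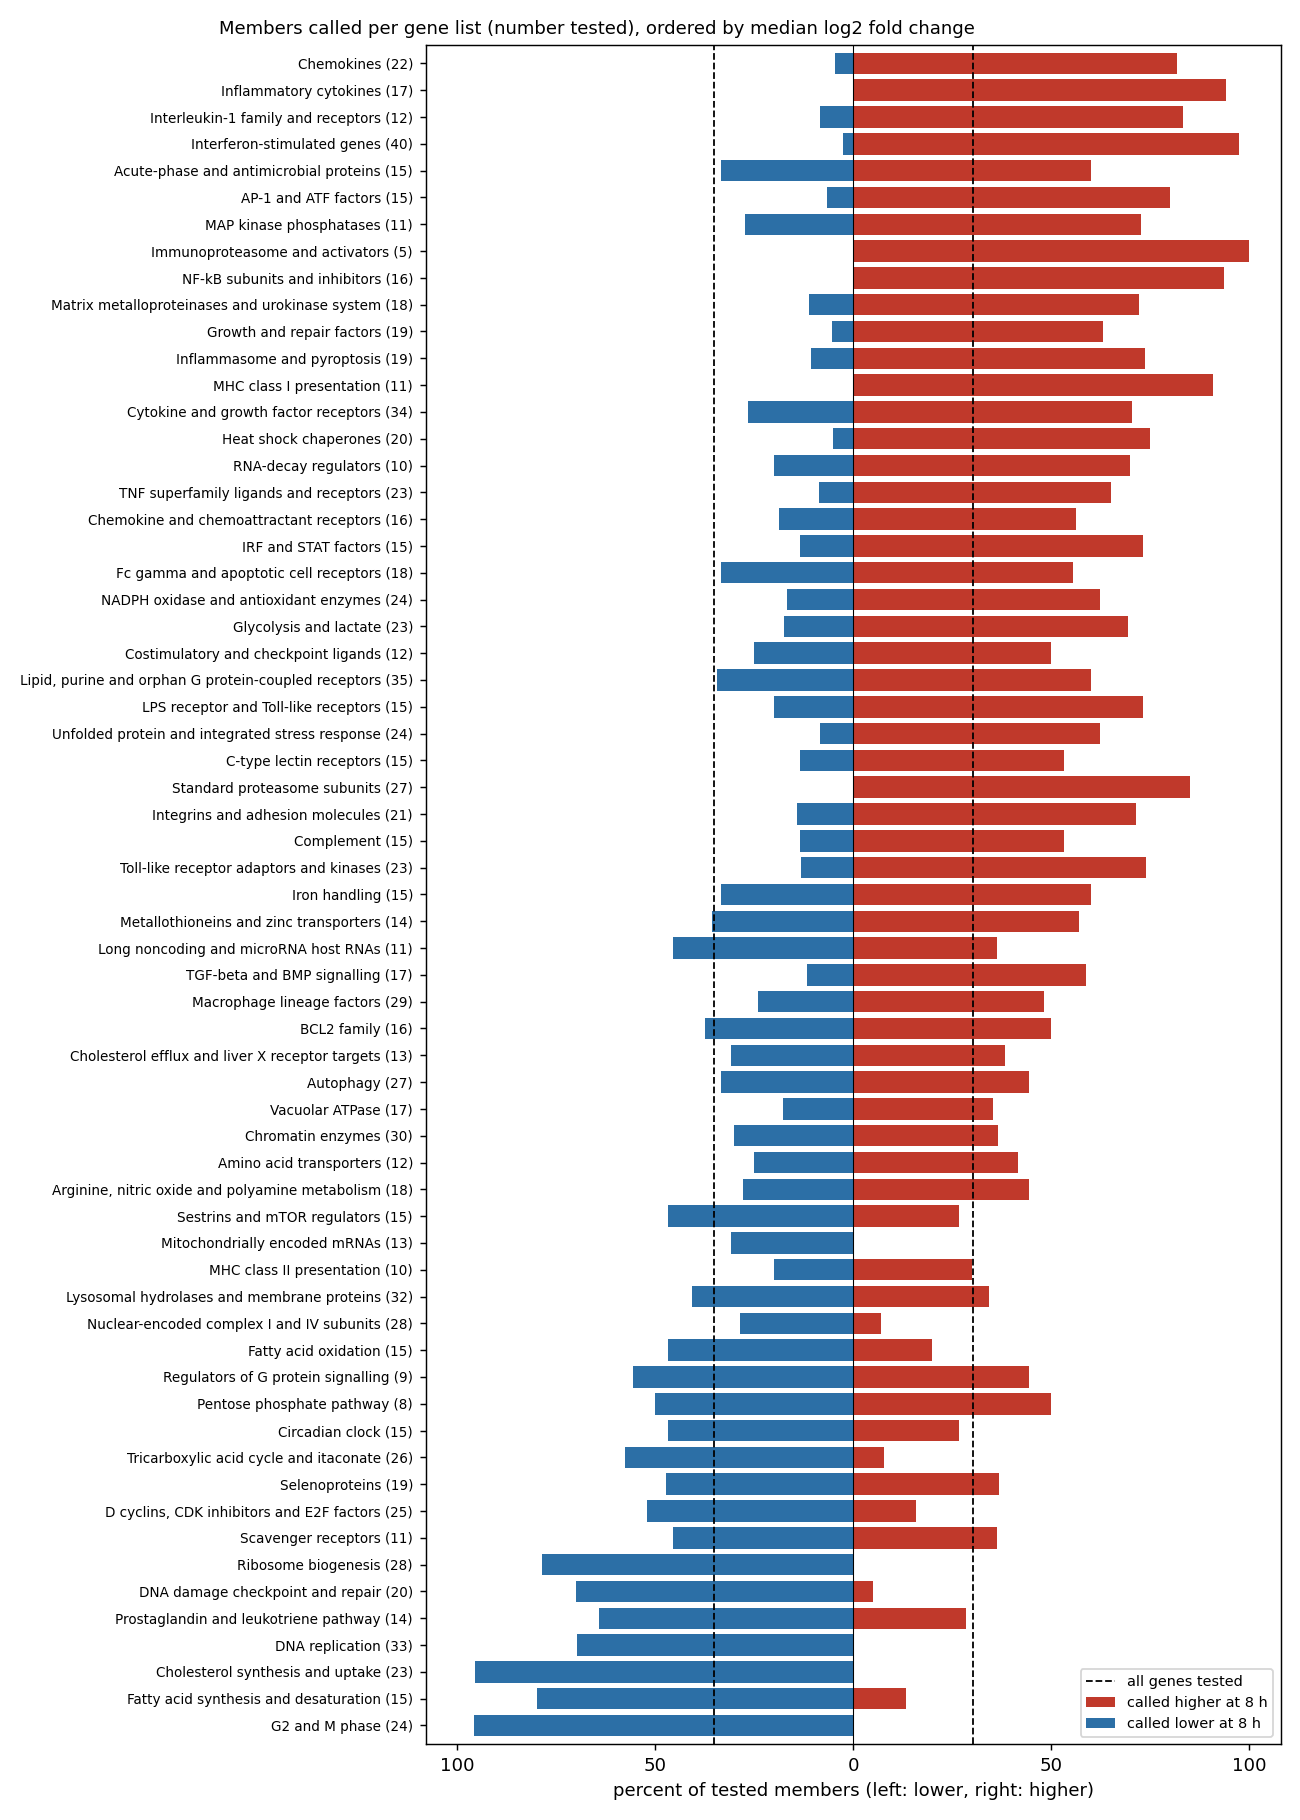
Bars give the percent of tested members of each gene list called higher (right, red) or lower (left, blue) at 8 h LPS against untreated, with the lists ordered by their median log2 fold change. The dashed lines mark the shares over all genes tested, 30.3% higher and 35.1% lower; chemokines and inflammatory cytokines stand at one end, and G2 and M phase genes at the other.

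The receptor of LPS and its neighbours did not move together. Of 15 Toll-like receptors and co-receptors tested, 11 were higher and 3 were lower, with a median log2 fold change of 0.99. Tlr4, the LPS receptor itself, was among those that fell, to 38.8, 32.4 and 28.4 CPM at 8 h against 77.97, 77.9 and 71.8 CPM in untreated cells (-1.19 ± 0.18, adjusted p = 1.3e-05). Tlr5, the receptor of bacterial flagellin, had 0.271, 0.142 and 0.147 CPM against 5.02, 6.14 and 4.74 CPM (-4.81 ± 0.46). Cd14, which hands LPS to the receptor, rose to 1097, 1214 and 1123 CPM against 472, 417 and 475 CPM (1.33 ± 0.18). Tlr3, which senses double-stranded RNA in endosomes, rose by 4.13 ± 0.35 on the log2 scale, to 254, 165 and 349 CPM against 12.8, 12.5 and 18.6 CPM, and Tlr2, for bacterial lipoproteins, rose by 2.16 ± 0.17. Of 23 adaptors and kinases downstream, 17 were higher and 3 lower, with a median of 0.64. The 3 that fell included Irak1, a kinase downstream of MyD88, at 57.9, 61.7 and 47.4 CPM against 103, 100.0 and 104 CPM (-0.88 ± 0.11), and Tab1, a partner of the kinase TAK1 (-1.71 ± 0.16). Irak3, an inactive kinase that restrains the pathway, rose by 2.39 ± 0.26 and Irak2 by 2.78 ± 0.23. Myd88 rose by 2.05 ± 0.12 and Ticam1, which encodes TRIF, by 1.66 ± 0.18.

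Of 16 NF-kB subunits and inhibitors, 15 were higher and none was lower, with a median of 2.36. Subunits that are themselves targets of the pathway were higher, by different amounts. Nfkb2, the precursor of p52, had 327, 368 and 330.4 CPM at 8 h against 45.5, 54.4 and 51.4 CPM in untreated cells (2.76 ± 0.25), and Rel, a subunit of immune cells, had 67.9, 51.4 and 89.7 CPM against 36.8, 38.6 and 38.4 CPM (0.88 ± 0.19). Inhibitors rose as well. Nfkbie, an IkB that holds dimers in the cytoplasm, had 148, 162 and 110.0 CPM against 14.7, 16.996 and 11.7 CPM (3.28 ± 0.30). Tnip3, a partner of the deubiquitinase A20, had 296, 241 and 629.8 CPM against 30.01, 29.97 and 61.4 CPM (3.27 ± 0.44). Library 9 held the most Rel and Tnip3 of the 8 h libraries and the least Nfkbie. Tnfaip3, which encodes A20, had 485, 438 and 744 CPM at 8 h against 12.5, 13.95 and 17.2 CPM in untreated cells, with no overlap between the groups (5.25 ± 0.42, adjusted p = 4.8e-09). At 4 h its log2 fold change from untreated cells had been 7.21, and the fall between 4 and 8 h was -1.95 ± 0.36 (adjusted p = 2.1e-04).

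The promoter of Tnfaip3 is shown because it belongs to the called member of this list with the largest change among those that hold the NF-kB consensus. The 250 bases before its start, from RefSeq on GRCm38.p6 (chr10:19015411-19015660, minus strand), hold the NF-kB consensus site, written here in capitals, at positions -125 and -12 from the start.

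Tnfaip3: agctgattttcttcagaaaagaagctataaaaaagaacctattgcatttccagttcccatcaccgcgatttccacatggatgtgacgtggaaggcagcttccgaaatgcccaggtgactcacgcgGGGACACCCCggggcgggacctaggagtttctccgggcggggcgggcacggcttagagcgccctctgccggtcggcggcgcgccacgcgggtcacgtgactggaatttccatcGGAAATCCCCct

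A match to the consensus, on either strand, was found in 8 of the 13 promoters of this list that have a window (61.54%) and in 7.008% of 27025 gene promoters of the same length. A match is a description of the sequence and not evidence of binding.

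Other brakes on the response were mostly higher. Of 11 MAP kinase phosphatases, which switch off p38, JNK and ERK, 8 were higher and 3 lower; the number lower was 1 without library 9. Dusp2, a nuclear phosphatase, had 59.8, 55.7 and 98.2 CPM at 8 h against 1.10, 1.73 and 2.12 CPM in untreated cells (5.43 ± 0.34), Dusp16 rose by 2.31 ± 0.19 and Dusp5 by 5.78 ± 0.34. Of 10 factors that destabilise or silence cytokine mRNAs, 7 were higher and 2 were lower. The higher ones included Zfp36, tristetraprolin, at 981, 789.9 and 1107 CPM against 60.7, 64.6 and 50.6 CPM (4.03 ± 0.34), and Zc3h12a, the ribonuclease Regnase-1 (3.39 ± 0.24). The 2 that fell were paralogs of tristetraprolin. Zfp36l2 had 119, 95.6 and 45.5 CPM against 344, 342 and 292 CPM (-1.91 ± 0.34), and Zfp36l1 fell as well (-1.21 ± 0.28).

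Of 15 AP-1 and ATF factors, 12 were higher and 1 was lower, with a median of 2.80. Atf3, a repressor induced by stress and by Toll-like receptors, had 913, 707 and 735 CPM at 8 h against 94.8, 86.3 and 78.7 CPM in untreated cells (3.18 ± 0.30), and Batf2, an interferon-induced partner of IRF1, had 126, 111 and 136 CPM against 7.06, 6.81 and 5.88 CPM (4.24 ± 0.25). The one that fell was Batf3, a factor of dendritic cell development (-2.17 ± 0.37). Of 15 IRF and STAT factors, 11 were higher and 2 were lower, or 1 lower without library 2, 3, 7 or 8. Irf7, which amplifies interferon production, had 3868, 3559 and 3367 CPM against 65.2, 55.3 and 114 CPM (5.53 ± 0.32), and Irf1 (2.31 ± 0.24) and Stat2 (3.07 ± 0.25) rose too.

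Factors of macrophage identity split: 14 of 29 were higher and 7 lower, with a median of 0.39. Cebpb, which drives inflammatory genes in macrophages, had 813, 829 and 637 CPM at 8 h against 123, 121 and 117 CPM in untreated cells (2.66 ± 0.28), and Hif1a, the oxygen-regulated factor of glycolysis genes, rose by 2.57 ± 0.27. Mef2c was among the 7 that fell, at 9.39, 10.5 and 8.62 CPM against 113, 121 and 99.5 CPM (-3.55 ± 0.28). Pparg, a nuclear receptor of lipid handling, had 2.50, 2.83 and 2.21 CPM against 24.6, 19.7 and 21.2 CPM (-3.12 ± 0.44), and Klf2, a restraint on inflammatory activation, had 3.61, 3.77 and 4.03 CPM against 17.7, 19.3 and 15.1 CPM (-2.19 ± 0.26). Tfeb, the regulator of lysosome genes, fell as well (-1.47 ± 0.21). Of 30 chromatin regulators, 11 were higher and 9 lower, a split close to that of all genes. Kdm6b, a demethylase of histone H3 lysine 27, had 51.9, 47.3 and 49.1 CPM against 5.22, 8.08 and 6.52 CPM (2.90 ± 0.27), while Ezh2, a methyltransferase of the same residue, had 5.21, 5.35 and 8.82 CPM against 21.8, 20.6 and 39.3 CPM (-2.08 ± 0.39).

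Secreted cytokines had some of the largest changes of all genes. Of 17 inflammatory cytokines tested, 16 were higher and none was lower at 8 h, with a median of 5.70. Il19, of the interleukin-10 family, and 2 genes of related lists had no read in any untreated library, so their change is a lower bound, taken against a floor of 3 counts summed over the untreated libraries. Il19 had 8.64, 6.80 and 6.80 CPM at 8 h, at least 396.2-fold higher. Il33, an alarmin of the interleukin-1 family, had 6.08, 4.19 and 7.09 CPM and was at least 309.4-fold higher. Il23r, which encodes a subunit of the interleukin-23 receptor, had 10.7, 6.03 and 9.24 CPM and was at least 463.6-fold higher.

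Other cytokines were detected in untreated cells. Il12b, the shared subunit of interleukin-12 and interleukin-23, had 51.2, 42.2 and 311 CPM at 8 h against 0, 0.0369 and 0.152 CPM in untreated cells (11.01 ± 1.93, 12.60 without library 3 and 9.48 without library 9). Il27, which with Ebi3 forms interleukin-27, had 138, 84.7 and 238 CPM against 2.56, 3.10 and 3.17 CPM (5.70 ± 0.55), and Ebi3 had 177, 189 and 208 CPM against 37.8, 42.6 and 38.9 CPM (2.26 ± 0.19). Il10, the main anti-inflammatory cytokine of macrophages, had 24.01, 14.6 and 34.7 CPM against 1.31, 1.44 and 0.739 CPM (4.39 ± 0.75), and Osm, oncostatin M, had 90.4, 75.5 and 72.6 CPM against 5.54, 4.96 and 5.88 CPM (3.86 ± 0.19). Library 9 was the highest 8 h library for Il12b, Il27, Ebi3 and Il10. Untreated library 3 tended to hold more of these mRNAs than libraries 1 and 2. Over 577 genes called at least 8-fold higher with a mean of at least 5 CPM, it was the highest untreated library in 383 (66.38%), with a median ratio of 1.282 to the other two, against 48.51% over all 11051 genes of that level. This selection rests on the same contrast and is a description.

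Within the interleukin-1 family and its receptors, 10 of 12 genes tested were higher and 1 was lower, with a median of 4.50. Il1f9, interleukin-36 gamma, had 20.97, 20.6 and 12.2 CPM at 8 h against 0.2995, 0.351 and 0.474 CPM in untreated cells (5.57 ± 0.60). Il18, which is stored as a precursor, had 50.7, 47.7 and 57.3 CPM against 3.59, 5.52 and 5.33 CPM (3.43 ± 0.22), and Il18bp, its soluble inhibitor, had 212, 187 and 183 CPM against 4.40, 4.17 and 3.68 CPM (5.57 ± 0.21). Il1rn, the receptor antagonist of interleukin-1, rose by 9.27 ± 0.64 (10.21 without library 3). The gene that fell was Il1rl1, the receptor of interleukin-33, at 0.0301, 0.142 and 0.206 CPM against 1.18, 1.18 and 2.84 CPM (-3.75 ± 0.71). Of 23 genes of the TNF superfamily and its receptors, 15 were higher and 2 were lower. Tnf had 291, 273 and 673 CPM at 8 h against 12.8, 14.4 and 25.8 CPM in untreated cells (4.54 ± 0.56), and the receptor genes Cd40 (6.67 ± 0.54) and Fas (3.64 ± 0.53) rose. The 2 that fell were the ligand genes Tnfsf12 (-1.29 ± 0.22) and Tnfsf13 (-1.49 ± 0.30).

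Chemokines were the list with the largest median, 6.75. Of 22 tested, 18 were higher and 1 was lower, or none lower without library 2 or 7. Cxcl2, a neutrophil attractant, had 339, 372 and 385 CPM at 8 h against 2.92, 2.86 and 5.27 CPM in untreated cells (6.63 ± 0.60). Ccl4, an attractant of monocytes and lymphocytes, had 322, 288 and 721 CPM against 35.3, 31.4 and 36.6 CPM (3.69 ± 0.33), and Cxcl16, a membrane-anchored chemokine, had 811, 968 and 956 CPM against 123, 124 and 157 CPM (2.76 ± 0.14). Cxcl11, an interferon-induced ligand of CXCR3, had 75.7, 58.3 and 158 CPM against 0.0187, 0.0738 and 0.114 CPM (10.41 ± 1.36). Cxcl3, another neutrophil attractant, had 51.5, 64.8 and 29.2 CPM against 0.150, 0.0554 and 0.227 CPM (8.37 ± 0.76). Among the 8 h libraries, library 9 was the highest for Ccl4 and Cxcl11 and the lowest for Cxcl3. The receptors of these ligands were mixed, with 9 of 16 higher and 3 lower. Ccrl2, a decoy-like receptor, had 248, 201 and 247 CPM at 8 h against 8.57, 9.78 and 8.15 CPM in untreated cells (4.71 ± 0.55). Ccr2, the receptor by which monocytes leave the marrow, had 25.6, 26.5 and 16.4 CPM against 98.5, 107.56 and 55.2 CPM (-1.93 ± 0.33), and Cxcr4, which holds cells in the marrow, had 34.1, 32.6 and 12.4 CPM against 219, 213 and 105 CPM (-2.76 ± 0.50). Within each group, library 3 (untreated) and library 9 (8 h) were the lowest for both of these. Fpr1 (7.52 ± 0.58) and Fpr2 (7.16 ± 0.50), receptors of formylated bacterial peptides, rose.

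The promoter of Cxcl3 is shown because it belongs to the called chemokine with the largest change among those that hold the NF-kB consensus. The window is chr5:90785851-90786100 on the plus strand of GRCm38.p6, from RefSeq, and the capitals mark 2 overlapping matches at positions -73 and -72 from the start.

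Cxcl3: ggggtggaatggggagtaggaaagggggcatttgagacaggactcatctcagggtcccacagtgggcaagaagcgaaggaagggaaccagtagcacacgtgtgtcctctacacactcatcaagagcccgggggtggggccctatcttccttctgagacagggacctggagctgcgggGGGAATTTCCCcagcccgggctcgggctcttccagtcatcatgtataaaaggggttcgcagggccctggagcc

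The site was found in 5 of the 15 chemokine promoters with a window (33.33%), against 7.008% of all promoters.

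Among 34 receptors of cytokines and growth factors, 24 were higher and 9 were lower, with a median of 1.66. Il4ra, a subunit of the interleukin-4 and interleukin-13 receptors, had 1083, 1013 and 1199.8 CPM at 8 h against 98.1, 113 and 74.2 CPM in untreated cells (3.53 ± 0.45), and Il13ra1 rose by 2.97 ± 0.29. Il15ra, which presents interleukin-15 to neighbouring cells, rose by 3.60 ± 0.61, and Il7r by 2.05 ± 0.27. Flt1, a receptor of vascular endothelial growth factor, had 16.7, 17.1 and 10.2 CPM against 0.618, 0.664 and 0.777 CPM (4.41 ± 0.49). Those that fell included Tgfbr2, a receptor of TGF-beta, at 92.6, 85.7 and 107 CPM against 288, 301 and 198 CPM (-1.46 ± 0.19), and Igf1r, the receptor of insulin-like growth factor 1, at 2.98, 3.80 and 1.68 CPM against 10.2, 11.5 and 7.9999 CPM (-1.81 ± 0.33). Il6st, the shared signal chain of interleukin-6 family receptors, fell (-1.90 ± 0.27), as did Ifngr1, a chain of the interferon-gamma receptor (-1.68 ± 0.25).

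Of 35 other G protein-coupled receptors, 21 were higher and 12 were lower. Both A2 receptors of adenosine, an anti-inflammatory mediator, moved up: Adora2a had 35.5, 34.98 and 44.5 CPM at 8 h against 0.131, 0.240 and 0.133 CPM in untreated cells (7.81 ± 0.82), and Adora2b had 59.5, 61.4 and 54.7 CPM against 1.78, 1.73 and 3.01 CPM (4.75 ± 0.45). Adora1, another adenosine receptor, had no read in any of these libraries. Hcar2, a receptor of niacin and beta-hydroxybutyrate, had 103, 69.7 and 111 CPM against 2.73, 3.40 and 6.27 CPM (4.52 ± 0.70), and Ptger2, a receptor of prostaglandin E2, rose by 2.41 ± 0.24. P2ry1, a receptor of ADP, had 1.11, 1.53 and 0.471 CPM against 16.8, 14.97 and 14.9 CPM (-3.90 ± 0.35), and Gpr183, a receptor of oxysterols, had 1.81, 2.58 and 1.65 CPM against 35.7, 39.9 and 41.5 CPM (-4.28 ± 0.32). Both of these fell. Of 9 regulators of G protein signalling, 4 were higher and 5 were lower, with Rgs16 at 6.92 ± 0.65 and Rgs18 at -3.10 ± 0.37.

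Of 40 interferon-stimulated genes tested, 39 were higher and 1 was lower, with a median of 3.52. Gbp5, a guanylate-binding protein that promotes inflammasome activity, had 718, 554 and 957 CPM at 8 h against 2.62, 3.21 and 1.93 CPM in untreated cells (8.16 ± 0.76, adjusted p = 3.7e-08). Rsad2, the antiviral enzyme viperin, had 8088, 5597 and 9381 CPM against 38.4, 35.9 and 48.6 CPM (7.55 ± 0.73). Iigp1, an immunity-related GTPase that attacks parasite vacuoles, had 427, 253 and 592 CPM against 1.80, 1.70 and 1.02 CPM (8.13 ± 0.71). Isg15, a ubiquitin-like modifier, had 1334, 1200.2 and 1223 CPM against 13.8, 11.3 and 27.4 CPM (6.16 ± 0.42), and Mx1, an antiviral dynamin-like GTPase, rose by 6.56 ± 0.61. In each of these 5 genes every 8 h library lay above every untreated library, and library 8 was the lowest of the 8 h libraries for Gbp5, Rsad2 and Iigp1. Between 4 and 8 h, 6 of the 40 were higher and 13 were lower at 8 h.

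The promoter of Gbp5 is shown for the interferon-stimulated response element, searched on both strands as TTTC, any 2 bases and TTTC. The window is chr3:142496684-142496933 on the plus strand of GRCm38.p6, from RefSeq, and the capitals mark the match at position -165 from the start.

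Gbp5: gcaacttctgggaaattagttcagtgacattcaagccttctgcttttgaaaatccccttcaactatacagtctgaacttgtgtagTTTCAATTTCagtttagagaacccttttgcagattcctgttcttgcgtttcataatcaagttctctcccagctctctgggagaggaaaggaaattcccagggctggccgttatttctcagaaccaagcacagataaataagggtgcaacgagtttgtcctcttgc

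Of the 31 promoters of interferon-stimulated genes with a window, 15 held this element (48.39%), against 3.038% of all promoters.

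**Figure D3:**
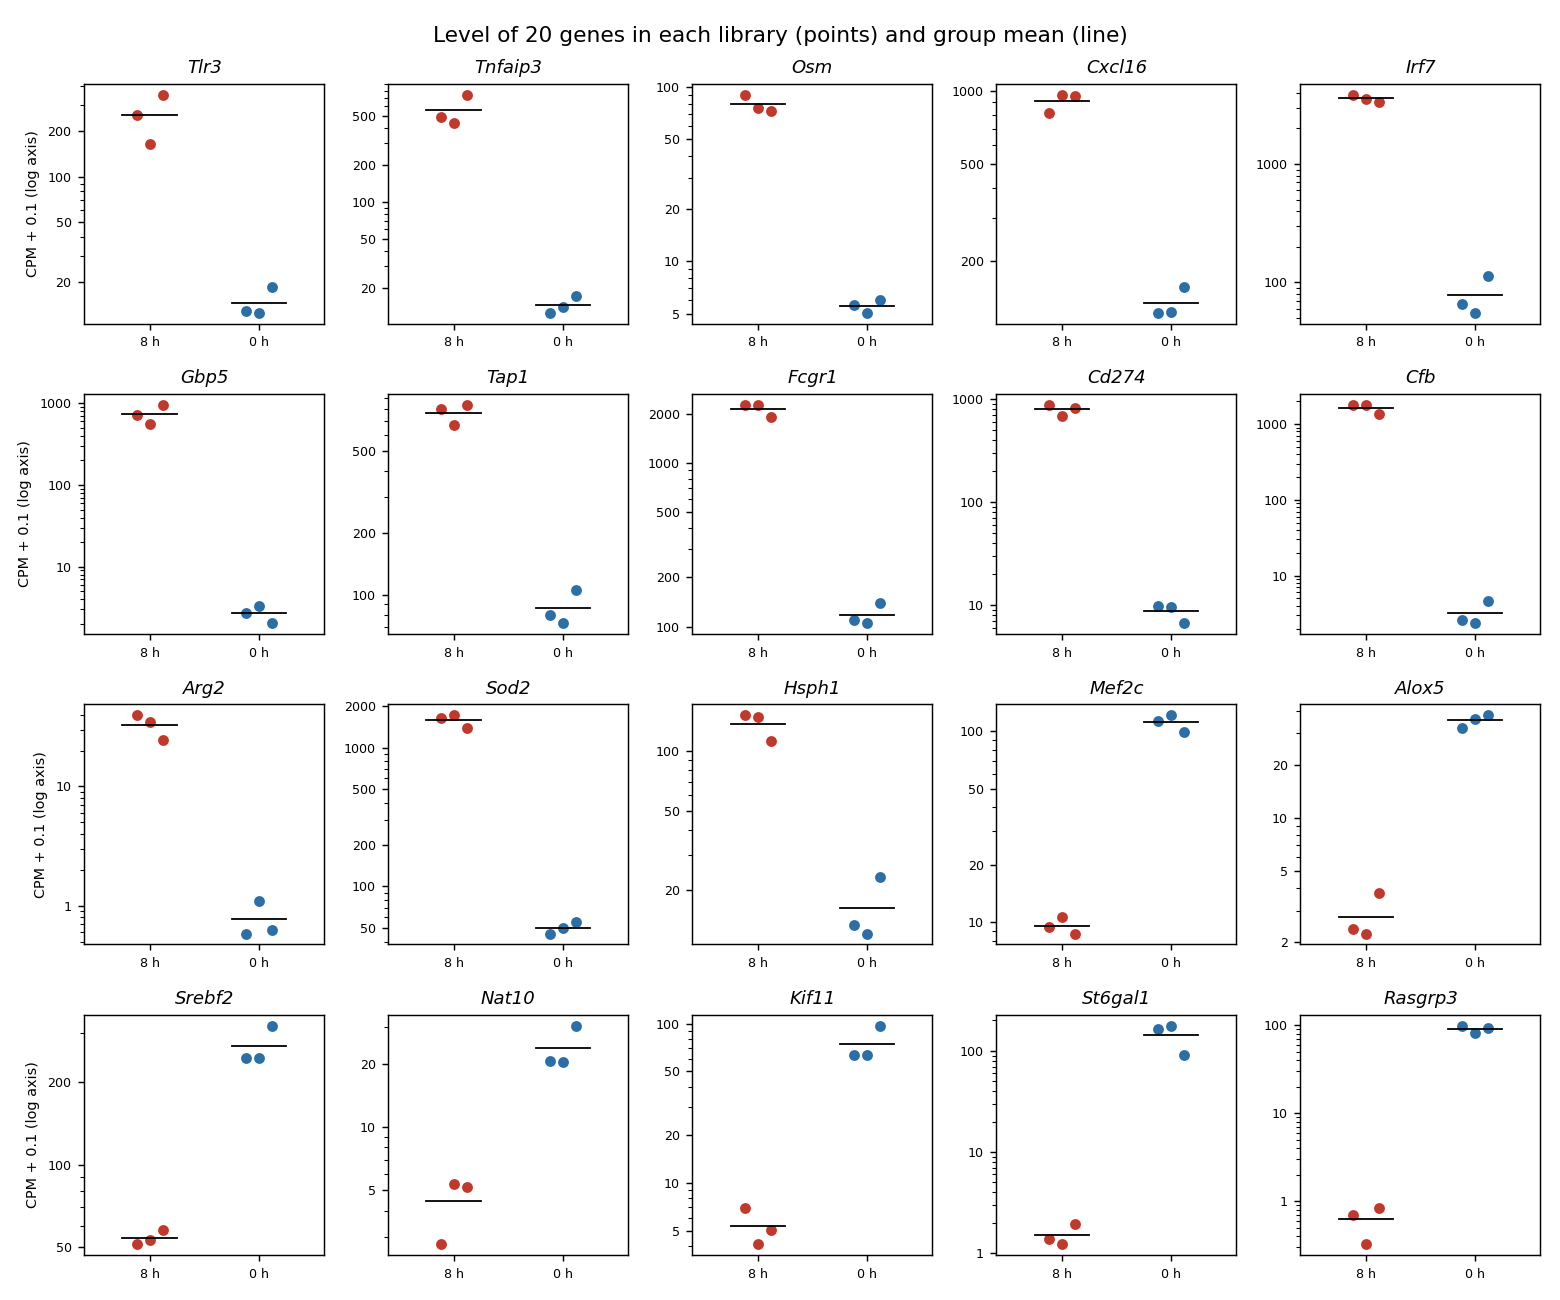
Each panel gives 1 gene in the 3 libraries at 8 h of LPS (red, left) and the 3 untreated libraries (blue, right), in CPM with 0.1 added on a log axis; the line marks the group mean. The groups do not overlap in any panel, and Mef2c, Alox5, Srebf2, Nat10, Kif11, St6gal1 and Rasgrp3 are lower at 8 h while the others, such as Tlr3 and Cfb, are higher.

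Genes of MHC class I presentation rose together, with 10 of 11 higher and none lower. Tap1, a subunit of the peptide transporter, had 796, 669.9 and 836 CPM at 8 h against 79.7, 72.8 and 106 CPM in untreated cells (3.15 ± 0.21), Tap2 rose by 2.56 ± 0.20 and Nlrc5, the transactivator of class I genes, by 2.92 ± 0.28. H2-K1, a class I heavy chain with close paralogs that the counting may not separate, rose by 1.46 ± 0.15. All 5 subunits of the immunoproteasome and its activator rose, with a median of 2.43. Psmb10, a catalytic subunit, had 468, 464 and 432 CPM against 63.05, 62.96 and 70.1 CPM (2.80 ± 0.13), and Psme2, of the activator, had 361, 382 and 331 CPM against 50.7, 49.05 and 65.9 CPM (2.70 ± 0.16). Of 27 genes of the constitutive proteasome, 23 were higher and none lower, by less: the median was 0.85, and Psma6, an alpha ring subunit, had 192, 226 and 239 CPM at 8 h against 49.1, 51.3 and 55.6 CPM in untreated cells (2.07 ± 0.13).

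MHC class II genes did not follow. Of 10 tested, 3 were higher and 2 were lower, with a median of -0.08; 2 were higher without library 1, 3 or 8, and 1 was lower without library 2 or 7. H2-Ab1, a class II beta chain, had 56.3, 69.7 and 44.2 CPM at 8 h against 21.8, 31.2 and 24.7 CPM in untreated cells (1.13 ± 0.24), whereas H2-DMa, which helps to load class II peptides, had 22.8, 23.2 and 22.1 CPM against 32.6, 37.4 and 28.6 CPM (-0.53 ± 0.12). Among 12 costimulatory and checkpoint ligands, 6 were higher and 3 were lower. Cd274, which encodes PD-L1, had 881, 693 and 816 CPM against 9.88, 9.67 and 6.64 CPM (6.51 ± 0.48), and Cd86, a ligand of CD28, had 251, 205 and 241 CPM against 8.74, 10.98 and 9.82 CPM (4.56 ± 0.28). Vsir, the checkpoint ligand VISTA, had 70.9, 87.1 and 46.9 CPM against 389, 451 and 220.0 CPM (-2.37 ± 0.34), and Havcr2, TIM-3, had 11.98, 8.27 and 10.6 CPM against 21.5, 20.4 and 23.6 CPM (-1.09 ± 0.25).

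Surface receptors for uptake moved in both directions. Of 18 Fc and apoptotic cell receptors with their ligands, 10 were higher and 6 lower. The Fc gamma receptors Fcgr1 (2240.4, 2258 and 1916 CPM at 8 h against 110.0, 105 and 139.7 CPM in untreated cells, 4.18 ± 0.20) and Fcgr4 (4.77 ± 0.32) rose, as did the inhibitory Fcgr2b (3.30 ± 0.36). Mertk, a receptor by which macrophages eat dying cells, had 21.3, 20.5 and 18.6 CPM against 50.04, 52.6 and 26.96 CPM (-1.10 ± 0.35), and Gas6, its bridging ligand, had 141, 128 and 96.96 CPM against 1062, 1074 and 469 CPM (-2.83 ± 0.55). Axl, of the same receptor family, moved the other way (2.08 ± 0.28). Trem2, a lipid-sensing receptor of macrophages and microglia, had 91.4, 97.2 and 70.7 CPM against 372, 336 and 228 CPM (-1.85 ± 0.43). Library 3 was the lowest untreated library for Mertk, Gas6 and Trem2. Of 11 scavenger receptors, 4 were higher and 5 lower. Olr1, a receptor of oxidised LDL, had 37.8, 29.1 and 39.6 CPM against 0.0187, 0.111 and 0.152 CPM (8.52 ± 0.63), and Cd163, which takes up haptoglobin with haemoglobin, had 0.812, 0.708 and 0.353 CPM against 24.7, 29.1 and 15.6 CPM (-5.20 ± 0.62). Of 15 C-type lectins and related receptors, 8 were higher and 2 were lower. Clec4e, Mincle, which senses mycobacterial glycolipid, had 1832, 1963 and 1511 CPM against 62.5, 65.5 and 97.5 CPM (4.56 ± 0.47).

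Of 21 integrins and adhesion molecules, 15 were higher and 3 lower. Icam1, a ligand of leukocyte integrins, had 482, 540.4 and 702 CPM at 8 h against 51.8, 64.2 and 63.6 CPM in untreated cells (3.26 ± 0.46), Itga5, the fibronectin receptor alpha chain, rose (3.38 ± 0.31), and Itga6 and Itgb3 fell (-2.12 ± 0.25 and -3.06 ± 0.33). Complement genes were higher in 8 of 15 and lower in 2. Cfb, factor B of the alternative pathway, had 1780.5, 1793 and 1372 CPM against 2.47, 2.25 and 4.47 CPM (9.07 ± 0.39), and C3, the central component, had 754, 643 and 708 CPM against 35.7, 35.3 and 55.3 CPM (4.06 ± 0.48). Cd59a, a membrane inhibitor, fell (-1.31 ± 0.25). Of 15 acute phase and antimicrobial genes, 9 were higher and 5 were lower. Lcn2, which starves bacteria of iron by binding siderophores, had 753, 815 and 626 CPM against 13.6, 16.5 and 14.9 CPM (5.61 ± 0.42), Hp, haptoglobin, had 156, 178 and 49.6 CPM against 1.44, 1.70 and 2.14 CPM (6.18 ± 0.67), and F3, tissue factor, had 5.24, 5.07 and 2.38 CPM against 0.0749, 0.0185 and 0.0758 CPM (6.16 ± 0.66).

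Of 18 matrix proteases, inhibitors and related genes, 13 were higher and 2 were lower (1 without library 2 or 7), with a median of 2.23. Mmp13, a collagenase, had 1216, 1093 and 830.0 CPM at 8 h against 4.16, 5.96 and 6.31 CPM in untreated cells (7.58 ± 0.45). Serpinb2, plasminogen activator inhibitor 2, had 14.6, 18.4 and 7.001 CPM against 0.0374, 0.148 and 0.0948 CPM (7.11 ± 0.84), and Plaur, the urokinase receptor, had 252, 205 and 207 CPM against 22.4, 25.4 and 43.1 CPM (2.87 ± 0.23). Timp2, a tissue inhibitor of metalloproteases, fell to 72.1, 72.8 and 31.98 CPM against 323, 335 and 131 CPM (-2.16 ± 0.54). Growth and repair factors were higher in 12 of 19 and lower in 1, or in 2 without library 3. Thbs1, thrombospondin 1, had 645, 669 and 133 CPM at 8 h against 23.6, 26.3 and 7.41 CPM in untreated cells (4.66 ± 0.64), and Vegfa, the vascular growth factor, had 130.3, 111 and 34.5 CPM against 18.9, 17.2 and 12.5 CPM (2.51 ± 0.55). Library 9 was the lowest of the 8 h libraries for both and still lay above every untreated library. Areg, amphiregulin, had 0.391, 0.340 and 0.559 CPM at 8 h and no read in untreated cells, at least 22.99-fold higher.

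Enzymes of the prostaglandin and leukotriene pathways were mostly lower: 9 of 14 fell and 4 rose, with a median of -1.49. Alox5, the first enzyme of leukotriene synthesis, had 2.26, 2.12 and 3.65 CPM at 8 h against 32.2, 36.3 and 37.9 CPM in untreated cells (-3.73 ± 0.42, adjusted p = 4.3e-07). Its activating protein Alox5ap had 115, 118 and 99.02 CPM against 356, 365 and 318 CPM (-1.64 ± 0.16), and Lta4h (-1.52 ± 0.11) and Ltc4s (-2.77 ± 0.48), which make leukotrienes B4 and C4, fell as well. Ptgs1, the constitutive cyclooxygenase, had 4.39, 4.93 and 6.03 CPM against 35.4, 49.1 and 30.98 CPM (-2.91 ± 0.45). The inducible cyclooxygenase Ptgs2 moved the other way, with 870.4, 623 and 1454 CPM against 0.580, 0.646 and 2.73 CPM (9.54 ± 0.94, 10.64 without library 3). Pla2g4a, the phospholipase that releases arachidonic acid, rose by 1.31 ± 0.29, and Hpgd, which degrades prostaglandins, fell (-5.19 ± 0.50).

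Of 18 arginine, nitric oxide and polyamine genes, 8 were higher and 5 lower. Nos2, the inducible nitric oxide synthase, had 2305, 1746 and 3254 CPM at 8 h against 0.431, 0.498 and 2.41 CPM in untreated cells (11.10 ± 1.33, 12.34 without library 3). Slc7a2, the arginine transporter of macrophages, had 1292, 1177 and 1186 CPM against 3.97, 6.07 and 7.72 CPM (7.68 ± 1.07), and Gch1, which starts synthesis of the cofactor tetrahydrobiopterin, had 190.1, 151 and 203 CPM against 16.2, 15.3 and 23.7 CPM (3.30 ± 0.24). Both arginases, which compete for the same substrate, were higher at 8 h. Arg2, the mitochondrial one, had 39.4, 34.4 and 24.5 CPM against 0.487, 0.996 and 0.531 CPM (5.60 ± 0.44), and Arg1 had 29.7, 38.1 and 6.06 CPM against 0.0562, 0.0369 and 0.0190 CPM (9.25 ± 0.89).

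Glycolysis genes were higher in 16 of 23 and lower in 4, with a median of 1.03. Slc2a1, the glucose transporter GLUT1, had 684, 654 and 322 CPM at 8 h against 38.9, 39.7 and 64.8 CPM in untreated cells (3.53 ± 0.42), and Hk3, a hexokinase of myeloid cells, had 926, 854 and 721 CPM against 152, 139 and 152 CPM (2.50 ± 0.18). Library 9 held less of several of these mRNAs than libraries 7 and 8: Slc16a3, the lactate exporter, had 432, 463 and 81.01 CPM at 8 h against 33.7, 31.3 and 56.8 CPM in untreated cells, and Ldha, lactate dehydrogenase, had 899.9, 938 and 437 CPM against 321, 291 and 478 CPM, where library 9 overlapped the untreated libraries. The list's median at 4 h had been 0.07, and 13 of its genes were higher and 4 lower at 8 h than at 4 h. Genes of the tricarboxylic acid cycle, related enzymes and itaconate synthesis were lower in 15 of 26 and higher in 2, with a median of -0.48. Of the 26, 6 were lower by at least 2-fold. The number lower was 7 to 17 under the alternative tests, scalings, thresholds and sets of libraries run. Idh1, the cytosolic isocitrate dehydrogenase, had 27.6, 31.8 and 23.1 CPM against 151, 157 and 103 CPM (-2.32 ± 0.25), and Idh2, the mitochondrial one (-1.72 ± 0.36), and Fh1, fumarase (-1.23 ± 0.17), fell as well, with no overlap between the groups for any of the 3. Of 28 nuclear genes of respiratory complexes I and IV, 8 were lower and 2 higher (5 without library 3), with a median of -0.14, close to the -0.10 of all genes.

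Genes of cholesterol synthesis and uptake were lower in 22 of 23, and none was higher, with a median of -1.90. Srebf2, the transcription factor of the pathway, had 51.3, 53.2 and 57.8 CPM at 8 h against 244, 244 and 319.8 CPM in untreated cells (-2.32 ± 0.14), and Lss, which closes the sterol rings, had 5.90, 6.15 and 6.56 CPM against 37.1, 34.3 and 58.3 CPM (-2.80 ± 0.22). At 4 h the median had been -0.50, and 18 genes of the list were lower at 8 h than at 4 h. Fatty acid synthesis genes fell in 12 of 15 and rose in 2, with a median of -1.93. Srebf1 had 52.2, 52.2 and 43.9 CPM against 152, 155 and 229.5 CPM (-1.86 ± 0.16), and Fads1, a desaturase of polyunsaturated fatty acids, had 29.01, 30.7 and 25.3 CPM against 174, 169 and 214 CPM (-2.71 ± 0.38). Library 3 was the highest untreated library for all 4 of these sterol and fatty acid genes, and no 8 h library reached the untreated range. Acsl1, which activates long-chain fatty acids, was one of the 2 that rose, to 387, 408 and 335 CPM against 45.4, 45.1 and 47.9 CPM (3.03 ± 0.47). Efflux genes, the opposite arm, were mixed with 5 of 13 higher and 4 lower. Abca1 rose by 1.43 ± 0.24, Npc2, which carries cholesterol out of lysosomes, rose to 1715, 1795 and 1308 CPM at 8 h against 724, 679 and 539 CPM in untreated cells (1.31 ± 0.19), and Cyp27a1, which oxidises cholesterol for export, fell (-2.44 ± 0.47).

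Chaperones and stress genes rose late. Of 20 heat shock chaperones and regulators, 15 were higher and 1 lower, with a median of 1.36 at 8 h and 0.21 at 4 h. Hsph1, which recharges Hsp70, had 151, 147 and 113 CPM at 8 h against 13.3, 12.01 and 23.1 CPM in untreated cells (3.08 ± 0.26), and Hspa8, the constitutive Hsp70, had 4427, 4112 and 3311 CPM against 977, 877 and 932 CPM (2.09 ± 0.23). The member that fell was Hsf1, the transcription factor of the heat shock response (-0.96 ± 0.15). Of 24 genes of the unfolded protein and integrated stress responses, 15 were higher and 2 lower (1 without library 8), with a median of 0.95 at 8 h and -0.04 at 4 h. Ddit3, which encodes CHOP, had 64.4, 57.4 and 60.8 CPM against 11.3, 10.1 and 14.8 CPM (2.33 ± 0.19), Atf4, the central factor of the integrated stress response, had 635, 572 and 568 CPM against 219, 209 and 325 CPM (1.24 ± 0.19), and Hspa5, the main chaperone of the endoplasmic reticulum, rose by 1.76 ± 0.18. Of 24 NADPH oxidase and antioxidant genes, 15 were higher and 4 lower. Sod2, the mitochondrial superoxide dismutase, had 1627, 1711 and 1378 CPM at 8 h against 45.6, 50.4 and 55.03 CPM in untreated cells (4.96 ± 0.51), and Srxn1, which repairs peroxiredoxins, had 564, 619 and 242 CPM against 77.5, 73.7 and 94.8 CPM (2.53 ± 0.27). Library 9 was the lowest of the 8 h libraries for Hsph1, Hspa8, Sod2 and Srxn1, and lay above every untreated library for each. Txnip, an inhibitor of thioredoxin, had 104, 117 and 82.2 CPM against 377, 474 and 253 CPM (-1.86 ± 0.25).

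Iron and zinc genes had large single changes. Of 15 iron genes, 9 were higher and 5 lower. Slc11a2, the iron importer DMT1, had 261, 233 and 325 CPM at 8 h against 37.8, 39.2 and 46.4 CPM in untreated cells (2.73 ± 0.19), and Cp, ceruloplasmin, had 264, 260.3 and 265 CPM against 6.20, 7.23 and 5.04 CPM (5.42 ± 0.49). Among metallothioneins and zinc transporters, 8 of 14 were higher and 5 lower, or 3 lower without library 3. Mt2, a zinc-binding metallothionein, had 96.9, 96.02 and 38.01 CPM against 13.05, 11.7 and 14.3 CPM (2.56 ± 0.49), and Slc39a14, a zinc importer, had 134, 133 and 131 CPM against 24.3, 26.5 and 54.1 CPM (1.93 ± 0.40). Selenoprotein genes, the family of Selenow, were higher in 7 of 19 and lower in 9. Selenow, which encodes selenoprotein W, had 303, 319 and 327 CPM at 8 h against 127, 103 and 133 CPM in untreated cells (1.39 ± 0.37, adjusted p = 0.003). Txnrd1, cytosolic thioredoxin reductase, had 928, 973 and 633 CPM against 198, 202 and 272 CPM (1.91 ± 0.18), whereas the mitochondrial Txnrd2 fell (-1.39 ± 0.17). Gpx1, the abundant glutathione peroxidase, had 181, 174 and 170.4 CPM against 608, 571 and 579 CPM (-1.74 ± 0.12), and Gpx4, which reduces lipid peroxides, fell (-1.05 ± 0.12).

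Cell death genes included both arms. Of 19 inflammasome, pyroptosis and necroptosis genes, 14 were higher and 2 lower, with a median of 2.02. Nlrp3, the sensor, had 281, 304 and 310.3 CPM at 8 h against 62.6, 71.5 and 87.2 CPM in untreated cells (2.02 ± 0.17), Mefv, pyrin, had 69.3, 72.99 and 59.5 CPM against 1.59, 1.77 and 1.65 CPM (5.33 ± 0.26), and Mlkl, the effector of necroptosis, had 251, 213 and 237 CPM against 14.9, 13.8 and 21.6 CPM (3.80 ± 0.27). Nlrp1b (-1.58 ± 0.26) and Gsdme (-2.65 ± 0.22) were the 2 that fell. In the BCL2 family 8 of 16 were higher and 6 lower. The survival genes Mcl1 (1.54 ± 0.24) and Bcl2a1d (5.89 ± 0.56, one of several near-identical copies that the counting may not separate) rose. Bcl2, the founding survival gene, had 5.87, 5.98 and 7.59 CPM at 8 h against 21.8, 20.7 and 30.6 CPM in untreated cells (-1.91 ± 0.44), and Bmf, a death activator, had 2.47, 3.23 and 1.65 CPM against 32.3, 31.9 and 9.93 CPM (-3.33 ± 0.52).

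Lysosome genes were split, with 11 of 32 higher and 13 lower and a median of -0.14, close to the shares and median of all genes. By at least 2-fold, 5 were higher and 2 lower. The number lower was 3 to 14 under the alternative tests, scalings, thresholds and sets of libraries run. Ctsc, which activates serine proteases, had 2207, 2173 and 2576 CPM at 8 h against 247, 276 and 346 CPM in untreated cells (3.001 ± 0.14). Lipa, lysosomal acid lipase, had 497, 494 and 414 CPM against 1140.2, 1059 and 1045 CPM (-1.21 ± 0.14), and Smpd1, acid sphingomyelinase, had 15.7, 17.4 and 16.1 CPM against 41.01, 38.7 and 33.6 CPM (-1.20 ± 0.13). Of 27 autophagy genes, 12 were higher and 9 lower, with 3 each way by at least 2-fold. Under the alternatives run, 4 to 12 were higher and 4 to 9 lower. The cargo receptor gene Sqstm1, p62, had 2518, 2424 and 1751 CPM against 540.4, 549 and 509 CPM (2.07 ± 0.24) and Optn, optineurin, rose by 1.78 ± 0.23, whereas Atg7 (-1.13 ± 0.12) and Ulk2 (-1.36 ± 0.12), of the machinery that builds the autophagosome, fell.

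Growth and division genes were mostly lower. Of 28 genes of ribosome biogenesis, 22 fell and none rose, with a median of -0.95. Nat10, an acetyltransferase of ribosomal RNA, had 2.68, 5.27 and 5.06 CPM at 8 h against 20.5, 20.4 and 30.3 CPM in untreated cells (-2.45 ± 0.28), and Utp20, of the small subunit processome, had 5.81, 8.61 and 9.83 CPM against 27.7, 27.1 and 58.6 CPM (-2.22 ± 0.34). At 4 h the list's median had been 0.05, and 21 of the 28 were lower at 8 h than at 4 h, none higher. Of 33 DNA replication genes, 23 were lower and none higher (1 without library 3), with a median of -1.61. Tk1, thymidine kinase, had 2.74, 2.80 and 4.12 CPM against 39.5, 35.9 and 82.2 CPM (-4.03 ± 0.68), and Mcm7, of the replicative helicase, had 5.24, 4.93 and 8.12 CPM against 65.3, 57.5 and 148 CPM (-3.89 ± 0.78). Untreated library 3 held more of these mRNAs than libraries 1 and 2: the list summed to 761, 698 and 827 CPM at 8 h and to 1199, 1131 and 2605 CPM in untreated cells. Of 24 genes of G2 and M phase, 23 were lower, with a median of -2.72, and Tpx2 alone was not called. Plk1, a mitotic kinase, had 10.3, 7.34 and 9.03 CPM at 8 h against 58.3, 59.5 and 109 CPM in untreated cells (-3.09 ± 0.42), Ccna2, cyclin A2, had 15.8, 13.6 and 15.2 CPM against 121, 123 and 208 CPM (-3.34 ± 0.42), and Kif11, a spindle motor, had 6.83, 4.02 and 4.94 CPM against 62.9, 63.6 and 96.9 CPM (-3.82 ± 0.43). Library 3 was the highest untreated library for Plk1, Ccna2 and Kif11. Of 20 DNA repair genes, 14 were lower and 1 higher (2 without library 3). Brca2 had 1.05, 0.510 and 0.794 CPM against 7.49, 7.07 and 14.6 CPM (-3.63 ± 0.58), Msh6, of mismatch repair, had 8.58, 8.16 and 5.32 CPM against 28.3, 25.7 and 44.1 CPM (-2.15 ± 0.27), and the one that rose in the fit of all libraries was Mdm2, which degrades p53 (3.50 ± 0.32). Cdkn1a, the p53-induced inhibitor p21, was among 4 of 25 cyclin, CDK, inhibitor and E2F genes that rose, with 761, 709 and 528 CPM against 48.1, 50.99 and 100.4 CPM (3.32 ± 0.36), while 13 of the 25 fell.

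The promoter of Kif11 is shown for the CCAAT box, searched on both strands, which G2 and M phase promoters are known to carry. The window is chr19:37376132-37376381 on the plus strand of GRCm38.p6, from RefSeq, and the capitals mark the reverse complement of the box, with its first base at position -45 from the start.

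Kif11: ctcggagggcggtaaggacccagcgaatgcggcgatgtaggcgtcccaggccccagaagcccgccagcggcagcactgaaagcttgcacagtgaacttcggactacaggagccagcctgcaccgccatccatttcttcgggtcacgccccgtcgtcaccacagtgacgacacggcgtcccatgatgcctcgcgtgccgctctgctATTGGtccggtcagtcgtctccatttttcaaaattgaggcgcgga

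A CCAAT box was found in 17 of the 20 promoters of this list with a window (85.00%), against 34.46% of all promoters. The cell cycle element TTTGAA was found in 7 of the 20 (35.00%), against 16.27%. The other elements searched were found in few promoters: the heat shock element (GAA, any 2 bases, TTC, any 2 bases and GAA) in 1 of 15 (6.667%, against 0.3996% of all promoters), the sterol element (TCAC, any base and CCAC) in 1 of 16 (6.25%, against 1.036%) and the antioxidant element (TGAC, any 3 bases and GC) in 3 of 17 (17.65%, against 10.15%).

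Among 15 clock genes, 4 were higher (2 without library 7) and 7 were lower. Per1 had 74.4, 71.4 and 42.1 CPM at 8 h against 33.9, 33.6 and 33.2 CPM in untreated cells (0.90 ± 0.19), and Per3 had 0.722, 0.878 and 0.559 CPM against 8.91, 10.3 and 4.44 CPM (-3.45 ± 0.35). Nfil3, a repressor of clock output, rose by 1.55 ± 0.22, while Tef (-2.19 ± 0.27) and Dbp (-1.94 ± 0.42), activators of it, fell. Of 17 TGF-beta pathway genes, 10 were higher and 2 lower. Smad7, an inhibitor of the pathway, had 34.6, 29.4 and 27.5 CPM against 4.89, 4.48 and 5.57 CPM (2.61 ± 0.27), and Smad3, an effector, had 6.02, 7.25 and 3.27 CPM against 34.7, 36.1 and 29.3 CPM (-2.60 ± 0.38). Of 15 sestrin and mTOR genes, 4 were higher and 7 were lower. Ddit4, an inhibitor of mTOR complex 1, had 16.5, 15.7 and 10.4 CPM at 8 h against 1.09, 1.05 and 0.910 CPM in untreated cells (3.80 ± 0.56), and Deptor, an mTOR-binding inhibitor, had 0.211, 0.397 and 0.5001 CPM against 23.7, 27.96 and 13.95 CPM (-5.87 ± 0.48).

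Several of the largest falls were in genes outside these pathways. Rasgrp3, an activator of Ras and Rap, had 0.602, 0.227 and 0.735 CPM at 8 h against 98.5, 80.4 and 93.8 CPM in untreated cells (-7.45 ± 0.57). St6gal1, which adds sialic acid to glycoproteins, had 1.29, 1.13 and 1.82 CPM against 165, 177 and 90.6 CPM (-6.67 ± 0.50, adjusted p = 2.7e-09), and Cmah, which makes the sialic acid Neu5Gc, had 0.120, 0.170 and 0.147 CPM against 7.75, 6.94 and 6.65 CPM (-5.58 ± 0.40). Slco2b1, an organic anion transporter, had 0.421, 0.453 and 0.471 CPM against 77.8, 91.2 and 46.2 CPM (-7.31 ± 0.61). Untreated library 3 was below libraries 1 and 2 for St6gal1 and Slco2b1. Lpin1, a phosphatidate phosphatase of lipid synthesis, had 0.451, 0.595 and 0.206 CPM against 21.9, 22.1 and 10.6 CPM (-5.43 ± 0.48). Prr5, a subunit of mTOR complex 2, had 0.0903, 0.170 and 0.0882 CPM against 5.71, 7.01 and 4.85 CPM (-5.61 ± 0.44), and Tfap4, a helix-loop-helix transcription factor, had 0.0903, 0.113 and 0.0294 CPM against 5.71, 6.48 and 7.64 CPM (-6.35 ± 0.57). In each of these 7 genes every 8 h library lay below every untreated library.

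Against 4 h of LPS, 8452 of 18083 genes (46.7%) differed at 8 h, of which 4334 (24.0%) were higher and 4118 (22.8%) were lower. This comparison shares the 8 h libraries with the one above, so the values are given side by side. Of the 5480 genes higher at 8 h than in untreated cells, 3854 were also higher at 4 h, 375 were lower at 4 h and 1251 were not called at 4 h. Of the same genes, 1998 were called higher at 8 h than at 4 h, and 898 were called lower. The 1998 include the 375 that lay below untreated cells at 4 h. Of the 6344 lower genes, 4348 were also lower at 4 h, 167 were higher and 1829 were not called. Of these 6344, 2189 were called lower at 8 h than at 4 h, the 167 included, and 961 were called higher.

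Early cytokine and NF-kB genes had come down from their levels at 4 h. Ifnb1, interferon-beta itself, had 0.632, 0.595 and 0.882 CPM at 8 h against 8.001, 9.90 and 83.96 CPM at 4 h and 0, 0.0185 and 0 CPM in untreated cells; the difference between 8 and 4 h was -5.59 ± 0.85 (-3.67 without library 6). Tnf had 291, 273 and 673 CPM at 8 h against 1285, 1393 and 3301 CPM at 4 h (-2.27 ± 0.50, adjusted p = 0.0012). Of the 17 inflammatory cytokines, 9 were lower and 2 higher at 8 h than at 4 h, and of the 16 NF-kB subunits and inhibitors 9 were lower and none higher. Hhex, a homeobox repressor of haematopoietic cells, had 3.40, 3.06 and 2.35 CPM at 8 h against 53.8, 47.7 and 71.5 CPM at 4 h (-4.29 ± 0.22), and Bcor, a corepressor, had 6.68, 6.66 and 11.7 CPM against 144, 165 and 121 CPM (-4.10 ± 0.29).

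Other genes were higher at 8 h than at 4 h. Arc, known from synapses for its capsid-like assembly, had 20.3, 11.02 and 13.7 CPM at 8 h against 0.239, 0.207 and 0.238 CPM at 4 h (6.02 ± 0.42). Mnt, a repressor that pairs with Max, had 39.7, 40.8 and 25.1 CPM against 0.627, 0.443 and 0.583 CPM (5.99 ± 0.25), and Arg1 had 29.7, 38.1 and 6.06 CPM against 0.627, 0.739 and 0.106 CPM (5.67 ± 0.67). Spic, a transcription factor of iron-recycling macrophages, had 10.8, 18.2 and 18.7 CPM against 0.388, 0.502 and 0.450 CPM (5.14 ± 0.68), and Hmox1, which breaks down haem, had 6314, 6441 and 3358 CPM at 8 h against 320.1, 296 and 332 CPM at 4 h and 413, 442 and 474 CPM in untreated cells (4.09 ± 0.36). Per1 had 74.4, 71.4 and 42.1 CPM at 8 h against 3.02, 2.34 and 2.04 CPM at 4 h and 33.9, 33.6 and 33.2 CPM in untreated cells (4.67 ± 0.23 between 8 and 4 h). Among lists of at least 20 tested members, those with the largest shares higher at 8 h than at 4 h were heat shock chaperones (14 of 20), glycolysis (13 of 23), the stress responses (12 of 24) and antioxidant genes (12 of 24), and those with the largest shares lower were cholesterol synthesis and uptake (18 of 23), ribosome biogenesis (21 of 28) and G2 and M phase (16 of 24, or 10 without library 6).

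**Figure D4:**
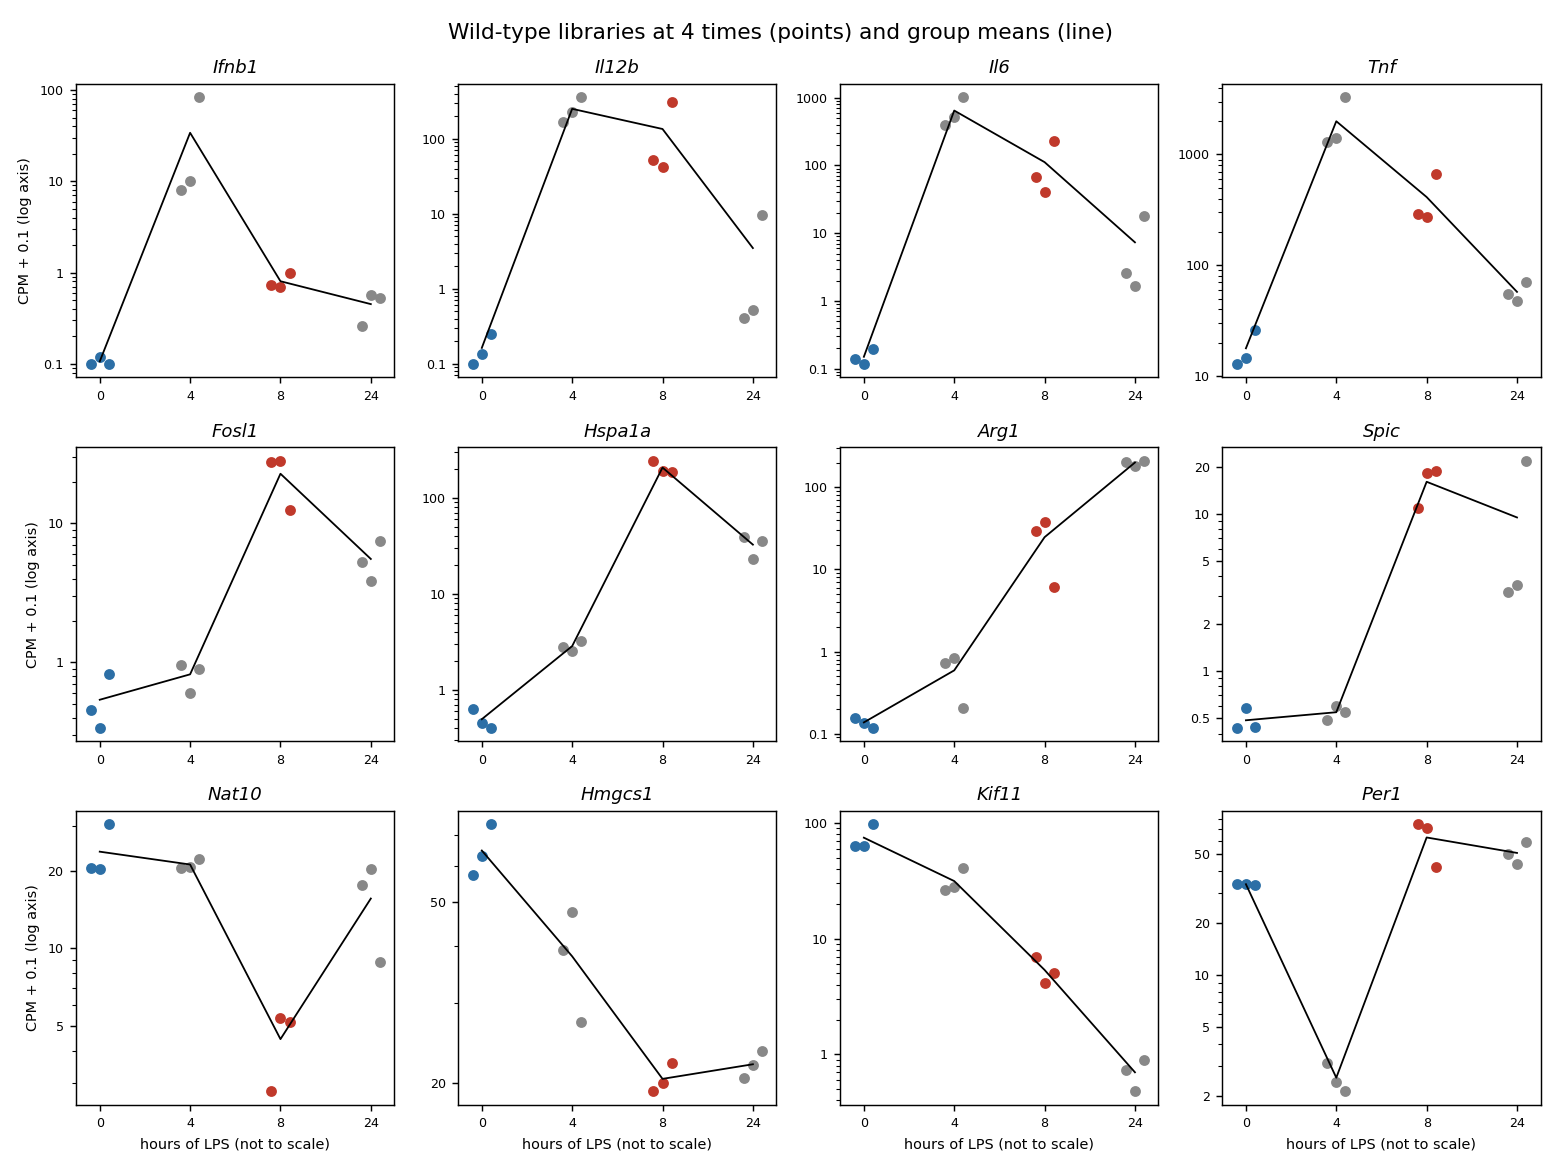
Each panel gives 1 gene in CPM with 0.1 added on a log axis at 0, 4, 8 and 24 h of LPS in wild-type cells (the time axis is not to scale), with untreated libraries in blue, 8 h libraries in red and the others in grey; the line joins the group means. Ifnb1, Il12b, Il6 and Tnf stand highest at 4 h, Hspa1a, Arg1, Spic and Per1 are higher at 8 h than at 4 h, and Nat10, Hmgcs1 and Kif11 lie below untreated cells at 8 h.

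Few genes were called for a difference between the genotypes in their change over the same 8 h of LPS. A gene that was not called is not thereby shown to respond alike in both. The interaction of genotype and LPS was called for 8 of 18083 genes (0.0442%), 1 with a more positive change in labelled knock-out cells (0.00553%) and 7 with a more negative one (0.0387%), while 2045 had an unadjusted p under 0.05. DESeq2 called 196. Fes, a tyrosine kinase of myeloid cells, fell with LPS in wild-type cells, to 68.5, 66.2 and 69.1 CPM at 8 h against 184, 187 and 137 CPM in untreated cells, and had 181, 189 and 169 CPM against 223, 195 and 234 CPM in labelled knock-out cells (interaction 1.05 ± 0.16, adjusted p = 0.013). Libraries 13, 16, 19 and 22 of the labelled knock-out hold Selenow near the wild-type level. Without them no interaction was called, and that of Fes was 1.06. The call of Fes was also lost without library 1 (0.98), 2 (0.97), 7 (1.05), 19 (1.04) or 20 (1.01), and leaving out library 1, 2, 7 or 20 singly left no interaction called.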

How the data were processed

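RNA was isolated as total RNA with an on-column DNase step and sequenced as paired reads of 100 bases, per the labels' protocols. The authors deposited raw counts of read pairs per gene, made with featureCounts 2.0.1 on the Ensembl release 101 annotation of GRCm38, per the file headers. Alignment used HISAT2, per the submitters' processing notes, and its version is not given in the sources used here. Per the file headers, counting ignored strand and let a pair count for every gene it overlapped, so antisense, overlapping and near-identical genes cannot be fully separated. The deposited exonic length was used for TPM only. Of 55401 genes, 55141 were named through GENCODE mouse release 21 and 260 were not.

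The 8 groups of all 23 libraries were fitted as means with edgeR (version 4.0.16, in R version 4.3.3), using TMM, filterByExpr and the quasi-likelihood F-test. P-values are two-sided and Benjamini-Hochberg adjusted over 18083 genes, and genes under 0.05 were called. The SE was taken from the log2 fold change and its F statistic. A count of 0 in a library allows up to 0.0903 CPM at 8 h and 0.0569 CPM in untreated cells, a limit of 3 counts on the TMM scale that covers counting error only. List members without a read in one group were also set to their bound, which moved no list median. The fit was tested on simulated data in which few genes changed, equally often up and down. That simulation could not test the scaling where most genes change, as they did here.

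The comparison and the gene lists were chosen with earlier results of these data known. Lists are described by counts and medians and were not tested. Named genes were the largest gains and losses of TPM, the largest fold changes with at least 5 CPM in one group, up to 4 higher and 4 lower members of each list, and the largest differences between 8 and 4 h. Some members were named for their role in a pathway, after their values were seen, among them Cd14, Myd88, Rel, Tnf, Il10, Nlrp3, Srebf2 and Plk1. Promoters are 250 bases before the RefSeq gene start. Alternatives were DESeq2 1.42.0, limma-voom (limma 3.58.1), other scalings, filters and thresholds, fits of fewer libraries, a term for the library set and leaving out each library. The interaction with DESeq2 and with the set term, the 4 h libraries left out and the 8 against 4 h fit of 6 libraries were added after seeing the data. A few genes are not reported here.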

Additional observations from a re-analysis of the deposited data

Results flagged for a closer look

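In edgeR's test of the interaction, the change over 8 h of LPS differed between labelled knock-out and wild-type cells for 8 genes. Of these, 4 are described here. Groups of 3 libraries are too small for the check for single outlying samples. Abca5, a lipid transporter of lysosomes, had 0.453, 0.296 and 0.220 CPM at 8 h against 7.15, 3.58 and 8.96 CPM at 0 h in labelled knock-out cells, and 4.84, 4.70 and 3.97 CPM against 16.7, 16.2 and 13.5 CPM in wild-type cells (difference of the log2 changes -2.5489, adjusted p = 0.013). Nlrc4, an inflammasome protein, had 37.9, 27.1 and 41.9 CPM at 8 h against 18.9, 14.01 and 20.4 CPM at 0 h in labelled knock-out cells, and 98.5, 93.3 and 115 CPM against 13.1, 12.97 and 8.32 CPM in wild-type cells (-2.1518, adjusted p = 0.04). Dusp10, a MAP kinase phosphatase, had 5.30, 5.59 and 5.58 CPM at 8 h against 2.08, 2.47 and 2.38 CPM at 0 h in labelled knock-out cells, and 21.1, 15.1 and 15.3 CPM against 2.30, 2.31 and 2.96 CPM in wild-type cells (-1.5188, adjusted p = 0.04). For Fes, whose values are given above, the difference was 1.0465 (adjusted p = 0.013). Without libraries 13, 16, 19 and 22, which leaves 2 labelled knock-out libraries at each of the times compared, the difference was -2.80 for Abca5, -2.15 for Nlrc4, -1.56 for Dusp10 and 1.06 for Fes, and none of the 4 was called. Leaving out a single library also ended calls: that of Abca5 without library 1, 2, 7 or 20, that of Fes without 1, 2, 7, 19 or 20, that of Dusp10 without 1, 2, 7, 13, 14, 15, 19, 20 or 21, and that of Nlrc4 without 1, 2, 3, 7, 8, 9, 13, 15, 19, 20 or 21. Over these single omissions the difference stayed between -2.87 and -2.26 for Abca5, -2.30 and -1.96 for Nlrc4, -1.65 and -1.34 for Dusp10 and 0.97 and 1.18 for Fes.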

How the results depend on the processing

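The number of genes called at 8 h against untreated cells was 11824, and 9770 to 12405 under the other tests, scalings, filters, thresholds and sets of libraries run, except that a test against a fold of 1.5 called 7509. Leaving out each of the 6 libraries in turn gave 10809 to 11204. Against 4 h the number was 8452, 6090 to 9334 under those alternatives and 3554 against a fold of 1.5, and leaving out single libraries gave 7061 to 8641. The share of calls that were higher stayed between 43.05 and 50.11% under every scaling and tool run, against 46.35%. The interaction was the least stable result: 8 genes were called, 196 with DESeq2, 42 with a term for the library set and 0 without libraries 13, 16, 19 and 22, and leaving out single libraries gave 0 to 8. The cause was not tested. No named gene changed direction under any alternative run. Among the named genes, 239 pairs of gene and alternative lost their call, most often under the stricter fold, at 8 h against untreated cells and 9100 kept it. No paired analysis was run, because the labels share no replicate number between groups. The library set above comes from the data, not from the labels. Over 10474 genes, deviations from the group mean correlated at 0.216 for libraries 7 and 1, 0.259 for 8 and 2 and 0.294 for 9 and 3. The other pairs of an 8 h and an untreated library gave -0.275 to 0.172. Whether libraries of the same order were prepared together was not tested. Library 3 of the untreated group and library 9 of the 8 h group stood apart from their groups, and without both 10524 genes were called. Low genes are limited by depth: 1 read pair in an untreated library is about 0.0187 CPM.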
